A study of Mus musculus with 12 samples.

Results

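The glucocorticoid receptor and a set of its target genes were followed in mouse blood, a group of 9 genes named by symbol (Nr3c1, Tsc22d3, Fkbp5, Sgk1, Zbtb16, Ddit4, Klf9, Il1r2 and Anxa1), and all 9 were found among the 27381 features measured. Each of 12 microarrays held globin-depleted RNA pooled from the blood of several C57B16/J mice of both sexes (7 per pool according to the labels), which were 8 to 12 weeks old at surgery. Trained mice after the training period (3 arrays) had learned to run in the direction given by a visual cue for water, and untrained mice after it (3 arrays) had sat on the same ball and received water at random times. The same treatment arms before training (3 arrays each) were sampled at the surgery at which the head bar was fixed. All post-training mice, untrained ones included, had therefore gone through surgery, single housing, head fixation and restricted water. Atropine was given before that surgery and carprofen after it. The early sample came from a sinus of the skull under isoflurane and the late one from the trunk at death, so site of collection, age and handling cannot be told apart from time. Training took place in the dark phase of a reversed light cycle, and no hour of blood collection was stated. Replicates 1 and 2 of every group belonged to batch 1 and replicate 3 to batch 2, a repeat of the experiment.

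Glucocorticoids are adrenal steroids that rise with stress and with the daily activity phase. The receptor, encoded by Nr3c1, waits in the cytosol with heat shock protein chaperones, enters the nucleus once it binds the hormone and attaches to DNA at a short palindrome, or acts on other transcription factors. In blood the hormone is known to move lymphocytes out of the circulation, to raise neutrophil numbers and to restrain inflammatory genes. Tsc22d3 encodes GILZ, a leucine zipper protein that dampens inflammatory signalling. Fkbp5 encodes a cochaperone that lowers the receptor's affinity for hormone, and Sgk1 a kinase of ion transport and cell survival. Zbtb16 encodes a zinc finger repressor expressed in innate-like lymphocytes, Ddit4 an inhibitor of mTORC1 and Klf9 a zinc finger transcription factor. Il1r2 is a decoy receptor that traps interleukin-1, and Anxa1 is a phospholipid-binding protein that limits neutrophil recruitment.

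Promoter windows from RefSeq (build GRCm38.p6, from 250 bases before each annotated start to 50 bases after it) were matched to 7 of the 9 genes, with 14 windows in all, and Nr3c1 and Zbtb16 were not matched. The full receptor palindrome (AGAACA, 3 free bases, then TGTTCT), its looser core (GNACA, 3 free bases, then TGTNC, where N is any base) and the hexamer AGAACA alone were searched on both strands. The full palindrome contains the core and a pair of hexamers. The full palindrome stood in 0.00913% of all 32851 windows (3 windows), the core in 0.475% and the hexamer in 19.0%. Of these 3 windows 1 was among the 6 windows of Sgk1, and the palindrome there begins at position -189, counted from the start as position 1. Among the 14 windows the hexamer was found in 4, at starts of Sgk1 and Tsc22d3. The windows with the full palindrome and with the hexamer of Tsc22d3 are printed here because the levels of these genes took different courses, with the matched letters in capitals. The Sgk1 window is chr10:21993640-21993939 on the plus strand and the Tsc22d3 window is chrX:140600473-140600772 on the minus strand, with a hexamer at position -185.
Sgk1: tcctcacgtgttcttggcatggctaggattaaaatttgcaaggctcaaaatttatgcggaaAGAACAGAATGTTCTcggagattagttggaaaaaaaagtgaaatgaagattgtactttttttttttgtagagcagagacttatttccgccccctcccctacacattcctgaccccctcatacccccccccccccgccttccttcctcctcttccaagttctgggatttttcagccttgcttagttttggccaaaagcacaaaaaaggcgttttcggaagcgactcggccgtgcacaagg
Tsc22d3: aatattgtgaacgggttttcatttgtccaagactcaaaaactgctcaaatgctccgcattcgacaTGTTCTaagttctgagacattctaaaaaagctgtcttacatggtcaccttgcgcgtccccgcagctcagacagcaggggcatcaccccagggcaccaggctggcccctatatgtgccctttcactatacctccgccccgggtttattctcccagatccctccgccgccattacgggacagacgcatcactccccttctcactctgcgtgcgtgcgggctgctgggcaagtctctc
A match describes the letters in the window only, and binding was not measured.

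Tsc22d3 was lower in the blood after the training period in both arms, and it was the member whose 6 post-training and 6 pre-training arrays did not overlap. Its log2 intensity was 3.46, 3.41 and 3.04 in trained post arrays and 3.21, 3.21 and 3.52 in untrained post arrays. It was 3.73, 4.06 and 3.79 in trained pre arrays and 3.597, 4.02 and 3.61 in untrained pre arrays. The highest of the 6 post arrays (3.52) lay under the lowest of the 6 pre arrays (3.597), a pattern shared in this direction by 1.05% of all features. Over both arms Tsc22d3 fell by 0.49 on the log2 scale, or 1.41-fold (SE 0.12, 95% interval -0.75 to -0.24, limma adjusted p = 0.0426). The change was -0.56 in trained mice (SE 0.17, adjusted p = 0.202) and -0.43 in untrained mice (SE 0.17, adjusted p = 0.296). In batch 1 it was -0.53 and in batch 2 it was -0.42 over both arms, while in untrained mice it was -0.60 in batch 1 and -0.09 in batch 2. The call depended on single arrays: without any of the 12 arrays the value stayed between -0.58 and -0.43, but only 3 of the 12 reduced fits kept the adjusted p under 0.05 (0.0231 to 0.122), those without untrained post 3, untrained pre 1 or trained pre 1. Within batch 1 alone the adjusted p was 0.145.

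**Figure D1:**
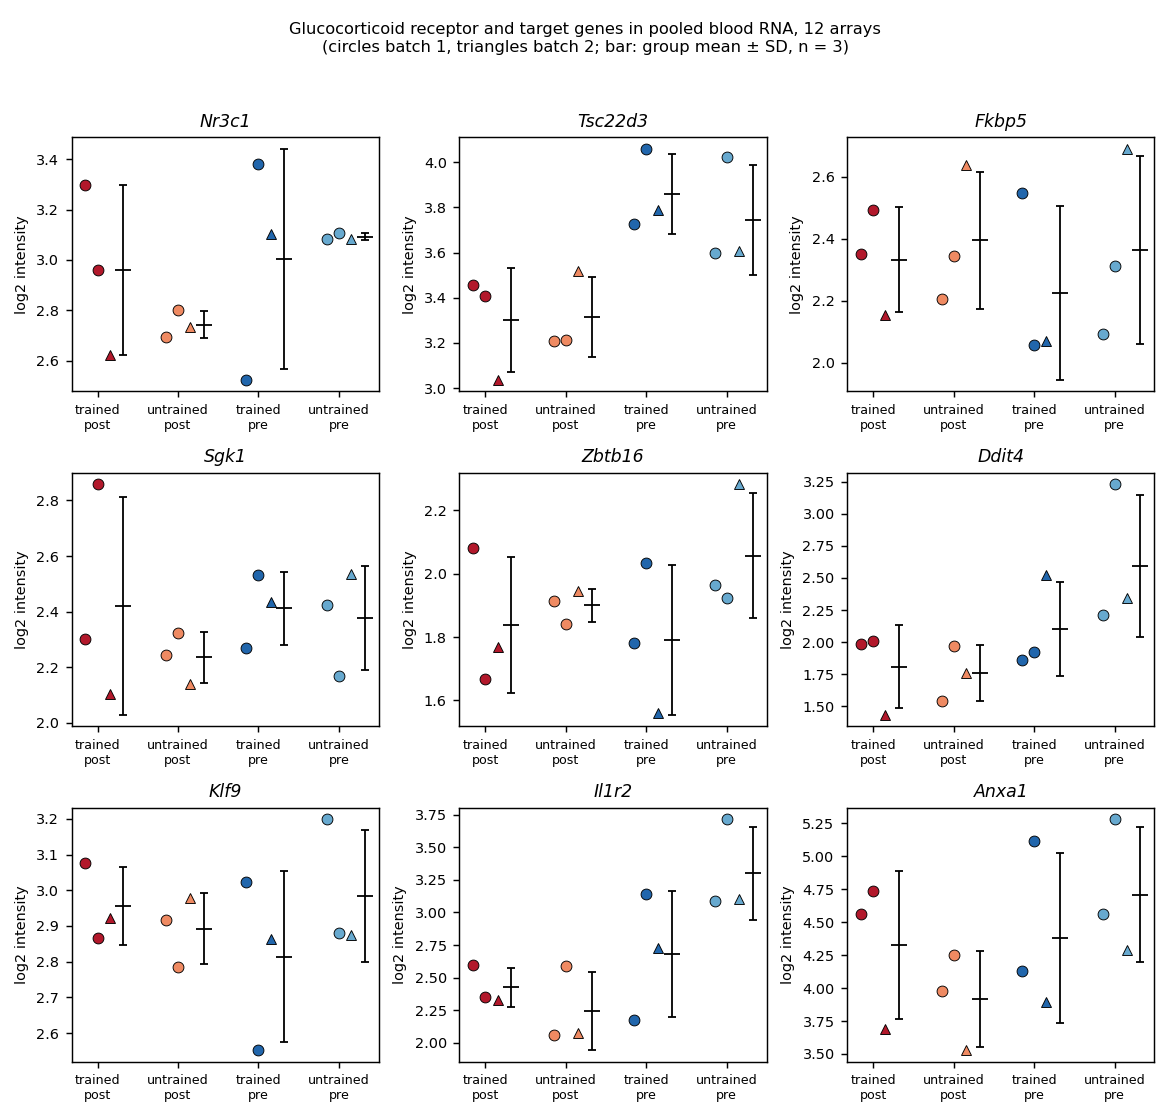
Log2 intensity of the 9 genes in each of 12 arrays (y axis, a scale for each gene), by group, with circles for batch 1, triangles for batch 2 and bars for the group mean and SD (n = 3). For Tsc22d3 all 6 post arrays (3.04 to 3.52) lie under all 6 pre arrays (3.597 to 4.06). For the other 8 genes the 6 post and 6 pre arrays overlap. In the untrained arm alone, Nr3c1, Ddit4, Il1r2 and Anxa1 also have all post arrays under all pre arrays.

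Tsc22d3 was the only gene of the 9 that passed the threshold in any comparison. In post against pre over both arms 1 of 9 passed, beside 3.21% of all features (1.92% in the downward direction). That share covers features of every level, whereas all 9 genes lay above the median feature level. With only features at or above that level kept, 1088 of 13691 passed, against 880 of 27381 in the main fit. In that setting 2 of the 9 genes passed. At an unadjusted p under 0.05 the count was 4 of 9, all lower after training, beside 8.14% of all features lower. The median difference of the 9 genes was -0.20 log2, against 0.01 for all features. In untrained mice alone 0 of 9 passed (0.676% of features did), with 4 lower at an unadjusted p under 0.05 (6.77% of features), and in trained mice alone 0 of 9 passed (0.281% of features), with Tsc22d3 lower at an unadjusted p under 0.05 (5.41% of features). In untrained mice 5 of the 9 genes (Nr3c1, Tsc22d3, Ddit4, Il1r2 and Anxa1) had all post arrays under all pre arrays, beside 8.43% of features, and in trained mice Tsc22d3 alone had, beside 7.78% of features. Lower transcript in bulk blood and fewer cells of the kind that carry it cannot be told apart.

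Markers of B cells, which are among the blood cells that express Tsc22d3, moved with it. The summed linear intensity of 12 B cell markers was 339 to 1045 in trained post and 285 to 591 in untrained post arrays, against 1446 to 1694 in trained pre and 1479 to 1819 in untrained pre arrays. Over both arms 11 of 12 of these markers passed the adjusted threshold as lower, beside 1.92% of all features, with a list median of -1.46 log2. T cell markers were negative in 11 of 11, with a median of -0.59. At a limma unadjusted p under 0.05, 8 of 11 were lower, beside 8.14% of all features. Of these 1 passed the adjusted threshold, beside 1.92% of all features lower. Untrained post 1 and trained post 3 had the lowest B cell markers and also the lowest Tsc22d3, in reversed order. The mean deviation of the markers was -1.48 in untrained post 1, with Tsc22d3 at 3.207. Untrained post 2 had nearly the same Tsc22d3 (3.215), but its marker deviation of -0.48 was the highest of the untrained post arrays. The marker deviation was -1.16 in trained post 3, with Tsc22d3 at 3.04. Untrained post 3 had the highest Tsc22d3 of the post arrays (3.52), with a marker deviation of -0.94. The part of B cell number in the fall of Tsc22d3 was not tested.

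The receptor gene itself did not pass the test. Nr3c1 stood at 3.30, 2.96 and 2.62 in trained post arrays and at 2.70, 2.80 and 2.73 in untrained post arrays. Before training it stood at 2.52, 3.38 and 3.10 in the trained arm and at 3.08, 3.11 and 3.08 in the untrained arm. The untrained arm was tight at both times and did not overlap between them, whereas the trained arm spread over most of the range at both times. The post minus pre difference was -0.35 in untrained mice (SE 0.21, 95% interval -0.80 to 0.10, adjusted p = 0.533) and -0.04 in trained mice (SE 0.21, -0.49 to 0.41, adjusted p = 0.977). These 2 changes differed by 0.31 (SE 0.29, adjusted p = 0.947), which was within the error. After training the receptor was 0.22 higher in trained than in untrained mice (SE 0.21, adjusted p = 0.896), with 0.38 in batch 1 and -0.11 in batch 2.

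The inflammation-limiting targets Il1r2 and Anxa1 shared a course in which untrained mice changed more than trained ones, without a call. Il1r2 was at 2.60, 2.35 and 2.33 in trained post and at 2.06, 2.59 and 2.08 in untrained post arrays. Before training it was at 2.18, 3.14 and 2.73 in the trained arm and at 3.09, 3.71 and 3.11 in the untrained arm. The 3 untrained pre arrays lay above all untrained post arrays, while in the trained arm 1 pre array (trained pre 1) lay under every trained post array. The post minus pre difference was -0.25 in trained mice (SE 0.24, adjusted p = 0.813) and -1.06 in untrained mice (SE 0.24, adjusted p = 0.0741). In untrained mice it was -1.07 in batch 1 and -1.03 in batch 2. Over both arms it was -0.66 (SE 0.17, 95% interval -1.03 to -0.28, adjusted p = 0.0613), and this value passed when trained pre 1 was left out (-0.80, adjusted p = 0.0175). Before training Il1r2 already differed between the arms by -0.62 log2, trained minus untrained (SE 0.24, limma unadjusted p = 0.0246, adjusted p = 0.999), beside 4.2% of features with an unadjusted p under 0.05.

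Anxa1 was at 4.56, 4.74 and 3.69 in trained post and at 3.98, 4.25 and 3.53 in untrained post arrays. Before training it was at 4.13, 5.11 and 3.90 in the trained arm and at 4.56, 5.28 and 4.29 in the untrained arm. In every group the batch 2 array was the lowest, and the batch term was -0.73 log2 (batch 2 minus batch 1, unadjusted p = 0.00155, adjusted p = 0.326). The post minus pre difference was -0.05 in trained mice (SE 0.24, adjusted p = 0.977) and -0.79 in untrained mice (SE 0.24, adjusted p = 0.164). In untrained mice it was -0.81 in batch 1 and -0.76 in batch 2. After training Anxa1 was 1.33-fold higher in trained mice, at 0.41 log2 (SE 0.24, 95% interval -0.11 to 0.93, adjusted p = 0.828), with 0.54 in batch 1 and 0.16 in batch 2.

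The interaction of training and time asked whether the 2 arms changed differently, and 0 of 9 genes passed, beside 0.00365% of features. It was 0.80 for Il1r2 (SE 0.34, 95% interval 0.06 to 1.55, adjusted p = 0.881) and 0.74 for Anxa1 (SE 0.34, 0.01 to 1.48, adjusted p = 0.881). Both had an unadjusted p under 0.05 (0.0367 and 0.0476), as had 5.67% of all features. The arms differed before training in the opposite sense, with -0.62 for Il1r2 and -0.33 for Anxa1. Single pre arrays of the trained arm bore on the interaction. Without trained pre 1 it was 0.51 for Il1r2 and 0.48 for Anxa1, and without trained pre 2 it was 1.02 and 1.01. Both stayed positive whichever of the 12 arrays was left out. In all, 8 of the 9 genes had a positive interaction, with a median of 0.23, against 49.4% positive and a median of -0.0039 over all features. These 9 values share the same arrays.

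Neutrophil markers were lower after the training period in both arms, with list medians of -0.57 log2 in untrained and -0.40 in trained mice. In the same order the changes were -1.06 and -0.25 for Il1r2 and -0.79 and -0.05 for Anxa1. The summed linear intensity of 13 neutrophil markers was 321 to 733 in trained post and 351 to 660 in untrained post arrays, against 716 to 1013 in trained pre and 744 to 1056 in untrained pre arrays. Over both arms 3 of 13 of these markers passed the adjusted threshold as lower, beside 1.92% of all features. By sign 12 of 13 had a negative difference, with a list median of -0.46 log2. Monocyte markers had a median of -0.31, and of 9 measured 2 passed as lower and 1 as higher (1.3% of all features passed as higher). The interaction median was 0.18 for neutrophil, 0.29 for monocyte, 0.43 for B cell, 0.42 for NK cell and 0.22 for T cell markers, with 0 called in any of these lists. Of the B cell markers 11 of 12 were positive and of the NK cell markers 9 of 10. Each list had 2 higher at a limma unadjusted p under 0.05, beside 2.8% of all features. Whether cell numbers account for Il1r2 and Anxa1 was not tested.

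**Figure D2:**
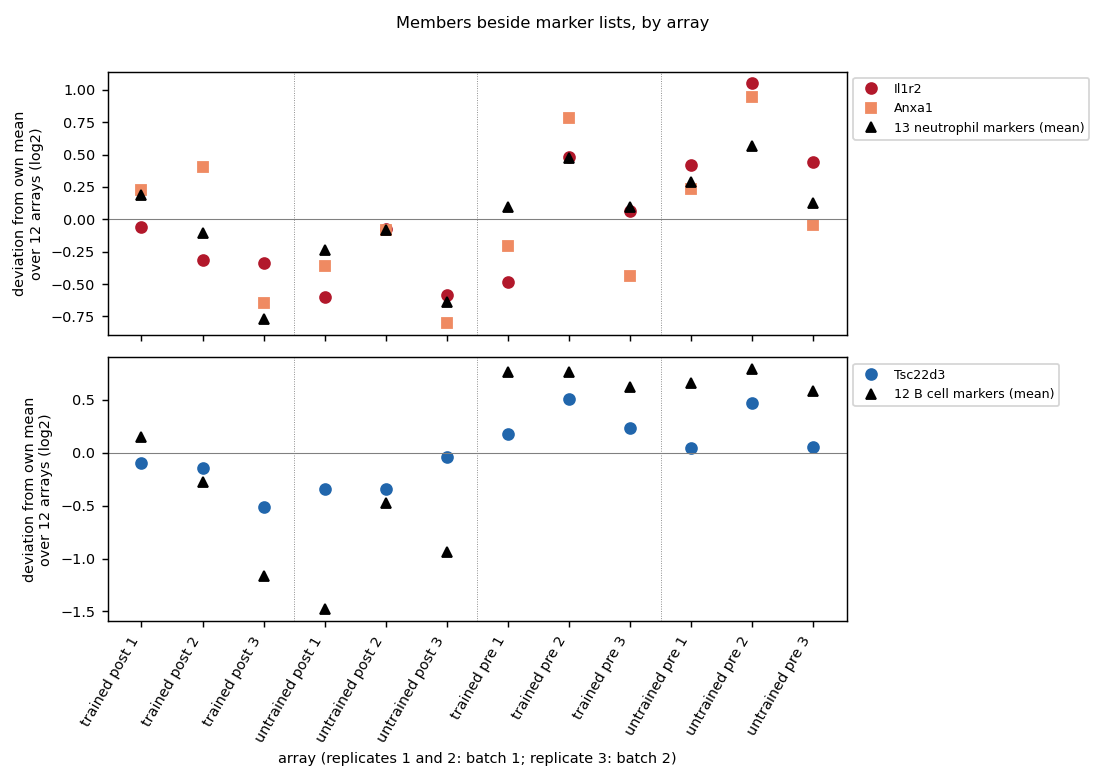
Deviation of each array (x axis) from the gene's or list's own mean over 12 arrays (y axis, log2). The upper panel shows Il1r2, Anxa1 and the mean of 13 neutrophil markers, with trained post 3 and untrained post 3 low for the marker mean (-0.77 and -0.64). The lower panel shows Tsc22d3 and the mean of 12 B cell markers, which are both above 0 in all 6 pre arrays.

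Ddit4, which restrains growth signalling under stress, was at 1.99, 2.01 and 1.43 in trained post and at 1.54, 1.97 and 1.76 in untrained post arrays. Before training it was at 1.86, 1.92 and 2.52 in the trained arm and at 2.21, 3.23 and 2.34 in the untrained arm. The untrained arrays did not overlap between the times, and untrained pre 2 stood well above the others. The difference over both arms was -0.56 log2 (SE 0.19, 95% interval -0.98 to -0.14, adjusted p = 0.161), with -0.84 in untrained (adjusted p = 0.203) and -0.29 in trained mice (adjusted p = 0.809). In trained mice it was 0.11 in batch 1 and -1.09 in batch 2. Without untrained pre 2 the untrained difference was -0.51. Before training the trained minus untrained difference was -0.50 (SE 0.27, adjusted p = 0.999), with -0.83 in batch 1 and 0.18 in batch 2.

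Fkbp5, Sgk1, Zbtb16 and Klf9 had no call in any comparison. Fkbp5, a widely used readout of receptor activity, ran from 2.15 to 2.49 in trained post and from 2.20 to 2.64 in untrained post arrays. Before training it ran from 2.06 to 2.55 in the trained arm and from 2.09 to 2.69 in the untrained arm. Its change over both arms was 0.07 log2 (SE 0.13, 95% interval -0.22 to 0.36, adjusted p = 0.875), so that a change of the size of Tsc22d3 lay outside the interval. Sgk1, which has the full palindrome printed above in 1 of its 6 windows, changed by -0.07 (SE 0.13, -0.34 to 0.21, limma adjusted p = 0.874). Its highest array was trained post 2 at 2.86, against 2.30 and 2.10 in the other 2 arrays of that group. Zbtb16 changed by -0.05 (SE 0.11, -0.30 to 0.19, adjusted p = 0.884). Before training it was at 1.79 ± 0.24 in trained and 2.06 ± 0.20 in untrained mice (SD, n = 3 each), a difference of -0.27 (SE 0.16, adjusted p = 0.999) that was -0.04 in batch 1 and -0.72 in batch 2. Klf9 changed by 0.02 (SE 0.11, -0.21 to 0.26, adjusted p = 0.951). Klf9 lay between 2.55 and 3.20 in all 12 arrays, the smallest SD over arrays of the 9 genes (0.16), and Anxa1 had the largest (0.54).

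The question of the study, whether trained and untrained mice differed after training, gave no call for these genes: 0 of 9 passed, as did 0% of all features, and 0 of 9 had an unadjusted p under 0.05, beside 6.41% of features. Of the 9 differences 6 were positive, beside 46.7% of all features, with a median of 0.06 against -0.01 for all features. The largest belonged to Anxa1 (0.41) and the value closest to 0 to Tsc22d3 (-0.01, SE 0.17, 95% interval -0.38 to 0.35). After training 0 of 9 genes had the 3 trained arrays all above or all below the 3 untrained arrays, beside 12.1% of all features. With only 9 genes this count does not set them apart from that share. B cell, T cell and NK cell markers all had positive differences in this comparison (12 of 12, 11 of 11 and 10 of 10, medians 0.49, 0.31 and 0.45), with 0 called. The signs of Nr3c1, Tsc22d3, Fkbp5, Sgk1, Ddit4 and Klf9 turned between the batches, and Zbtb16, Il1r2 and Anxa1 kept theirs. Before training 0 of 9 passed (0% of features), with a median difference of -0.17 and 2 of 9 positive, beside 48% of all features.

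**Figure D3:**
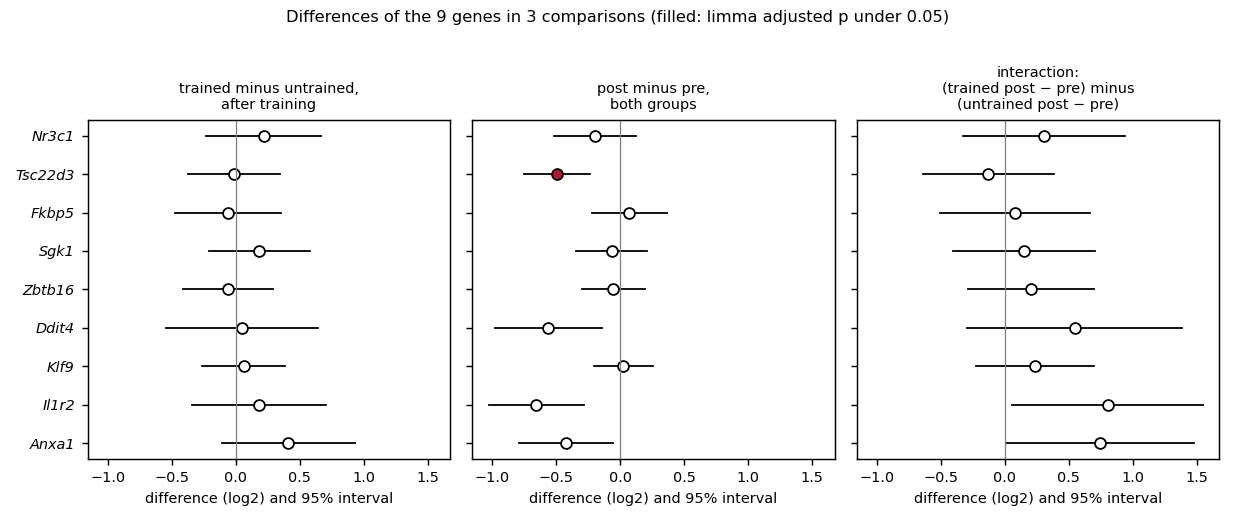
Difference in log2 (x axis) with its 95% interval for each of the 9 genes, for trained minus untrained after training, post minus pre over both arms, and the interaction. The filled point is Tsc22d3 (-0.49), the only value with a limma adjusted p under 0.05.

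Ordered by group means, the levels of Tsc22d3 separated by time: trained pre (3.86 ± 0.18) and untrained pre (3.74 ± 0.24) stood above untrained post (3.31 ± 0.18) and trained post (3.30 ± 0.23; SD, n = 3 each). Only the step between untrained pre and untrained post, 0.43, was larger than the larger SD of the neighbours. For Il1r2 the top 2 groups, untrained pre (3.30 ± 0.36) and trained pre (2.68 ± 0.48), were 0.62 apart, more than the larger SD. The steps below them, with trained post at 2.43 ± 0.15 and untrained post at 2.24 ± 0.30, were smaller than it. In the other 7 genes no neighbouring groups were further apart than the larger of their SDs. Untrained pre had the highest mean in Nr3c1, Zbtb16, Ddit4, Klf9, Il1r2 and Anxa1.

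Among themselves the genes fell into those that ran with Il1r2 and those that did not. As a description over 12 arrays that share groups and batches, Pearson r was 0.75 between Il1r2 and Anxa1, 0.82 between Il1r2 and Ddit4, 0.71 between Il1r2 and Nr3c1 and 0.67 between Il1r2 and Tsc22d3. After group and batch means were removed these were 0.84, 0.58, 0.71 and 0.53. Klf9 ran against Anxa1 in what was left (-0.85), and Fkbp5 stood at -0.39 with Il1r2. Outside the set, the features with the highest r were searched among 13672 with a mean at or above the median. Values picked as the highest of so many over 12 arrays are high by selection, and none was tested. Those most like Tsc22d3 were the zinc finger gene Zfp318 (r = 0.95), the MHC class I gene H2-K1 (0.94) and Commd8 (0.94). Those most like Anxa1 were the lysophospholipid acyltransferase Lpcat2 (0.94), the proton pump subunit Atp6v0e (0.92) and the metal transporter Slc11a1 (0.89). For Il1r2 they were Gtf2b, Arl6ip1 and Utp15 (0.91 to 0.94), for Nr3c1 Ppp4r1, Ppip5k2 and Il4ra (0.91 to 0.93) and for Ddit4 Tbc1d17, Unk and Ankrd44 (0.90 to 0.96). Fkbp5 had its nearest features at 0.81 to 0.83 (Gm15179, Gm4271 and Bcdin3d) and Klf9 at 0.85 to 0.86 (Socs2, Wdr59 and Taf11). The nearest of Sgk1 were Mat2a, Olfr3 and Rbm25 (0.88 to 0.92) and those of Zbtb16 were Zfp764, Emc6 and Asb8 (0.85 to 0.94).

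The wider pathway was read from 3 lists. Of 22 other genes that the receptor is known to induce, 7 fell and 2 rose past the adjusted threshold over the training period, both arms together. Among all features 1.92% and 1.3% did. These shares cover features of every level, and features at or above the median level passed more often (1088 of 13691 in either direction). The list median was -0.11 log2. Dusp1, a phosphatase that switches off MAP kinases, fell by 1.63 (SE 0.23, adjusted p = 0.00432), with 5.02 to 6.43 in post arrays against 6.80 to 7.80 in pre arrays. Cxcr4, the chemokine receptor that holds leukocytes in the marrow, fell by 1.18 (SE 0.13, adjusted p = 0.00187), with 5.20 to 5.96 in post arrays against 6.56 to 7.24 in pre arrays. Rgs2, a brake on G protein signalling, fell by 0.73 (SE 0.13, adjusted p = 0.0099). The other 4 that fell, named after their values were seen, were the NF-kB inhibitor Nfkbia (-0.94), the thioredoxin-binding protein Txnip (-1.13), the clock gene Per1 (-0.78) and the stress protein Sesn1 (-0.62). Dusp1, Cxcr4, Nfkbia and Sesn1 had all 6 post arrays under all 6 pre arrays, beside 1.05% of all features. The call of Cxcr4 held in all 20 alternatives, that of Rgs2 in 18, those of Dusp1, Nfkbia and Sesn1 in 19, that of Per1 in 13 and that of Txnip in 11.

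The 2 that rose were the metallothioneins, metal-binding stress proteins. Mt1 rose by 1.27 (SE 0.19, adjusted p = 0.00557) and its post arrays, the lowest at 3.44, lay above all pre arrays (2.80 to 3.24), with 1.66 in batch 1 and 0.49 in batch 2. Mt2 rose by 1.58 (SE 0.36, limma adjusted p = 0.0368), with 2.28 in batch 1 and 0.18 in batch 2. Its lowest post array (1.948) lay just above its highest pre array (1.935). Of all features 1.25% had every post array above every pre array, as Mt1 and Mt2 had. The call of Mt2 held in 11 of 20 alternatives against 20 of 20 for Mt1. The looser core was found in windows of 2 genes of this list, Txnip, which fell, and Mt1, which rose, and both windows are printed for that contrast with the core in capitals. The Txnip window is chr3:96557707-96558006 (plus strand, core at position -172) and the Mt1 window is chr8:94178839-94179138 (plus strand, core at position -94).
Txnip: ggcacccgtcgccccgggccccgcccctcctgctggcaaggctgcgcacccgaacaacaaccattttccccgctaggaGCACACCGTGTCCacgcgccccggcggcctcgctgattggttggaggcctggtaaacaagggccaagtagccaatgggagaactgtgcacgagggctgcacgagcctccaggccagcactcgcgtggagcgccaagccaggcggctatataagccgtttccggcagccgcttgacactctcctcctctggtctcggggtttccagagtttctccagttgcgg
Mt1: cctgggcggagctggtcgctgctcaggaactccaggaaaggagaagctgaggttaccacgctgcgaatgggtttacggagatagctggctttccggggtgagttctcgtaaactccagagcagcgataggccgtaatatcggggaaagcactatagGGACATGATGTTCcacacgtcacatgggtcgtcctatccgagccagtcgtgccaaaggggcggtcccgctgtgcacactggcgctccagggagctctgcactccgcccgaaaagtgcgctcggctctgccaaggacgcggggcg
Windows were matched for 20 of these 22 genes. In the same contrast 11 of 12 B cell markers (median -1.46) and 1 of 11 T cell markers passed the adjusted threshold as lower, beside 1.92% of all features. Platelet markers passed as higher in 8 of 13 (median 0.69) and airway and skin epithelium markers in 2 of 8, beside 1.3%. By sign, 12 of 12 B cell and 11 of 11 T cell markers were negative. By sign, 12 of 13 platelet and 7 of 8 epithelium markers were positive, beside 53.6% of all features. The epithelium differences reached 4.36. The part of these cells in the values of Cxcr4, Dusp1, Txnip, Mt1, Mt2 and the rest of the list was not tested.

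**Figure D4:**
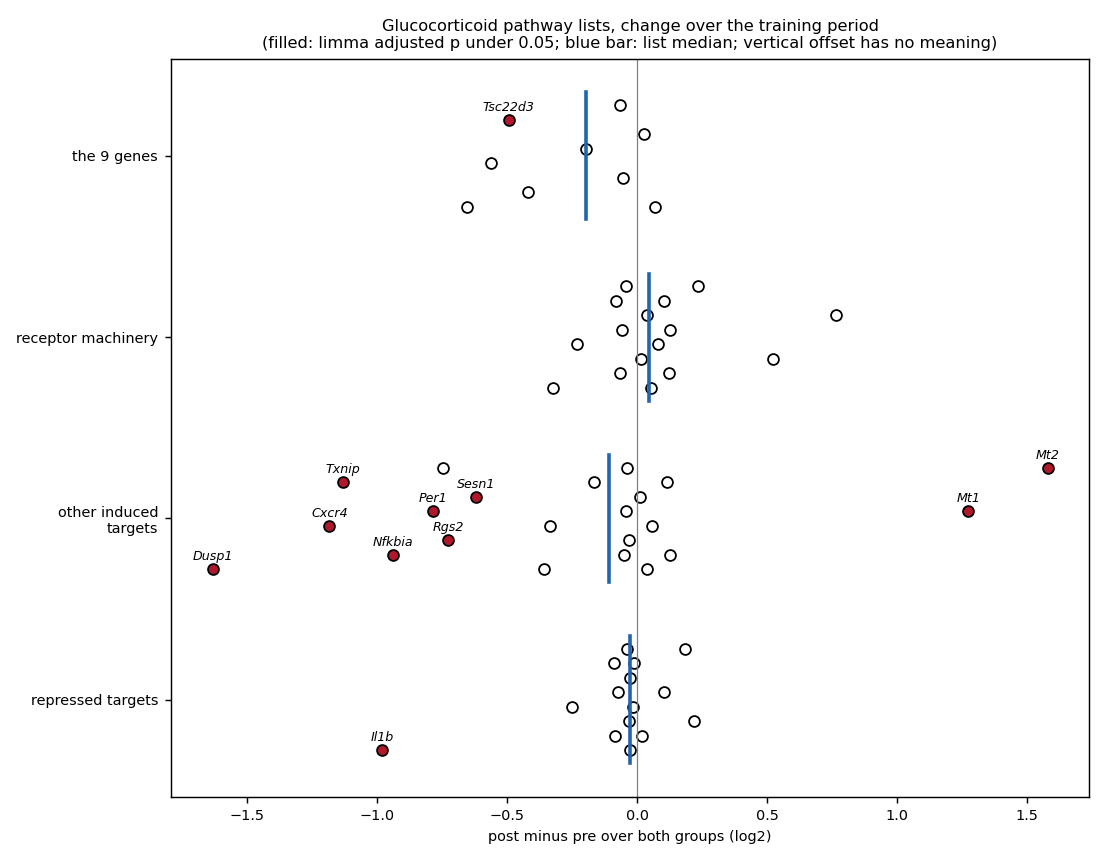
Post minus pre difference over both arms (x axis, log2) for each gene of the set and of 3 pathway lists (rows), filled where the limma adjusted p was under 0.05, with a blue bar at each list median. Among the other induced targets 7 filled points lie left of 0, from Dusp1 at -1.63 to Sesn1 at -0.62, and Mt1 and Mt2 lie right of it at 1.27 and 1.58.

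Of 16 genes of the receptor's own machinery 0 passed over the training period, beside 3.21% of all features, with a median of 0.04 log2. At a limma unadjusted p under 0.05, 2 of 16 were higher, beside 7.33% of all features. The coactivator Ncoa1 was at 0.52 (SE 0.13, adjusted p = 0.0527), the chaperone Hsp90aa1 at 0.76 (SE 0.22, adjusted p = 0.0894), Ncoa2 at 0.23 and the cochaperone Stip1 at 0.13. After training, trained minus untrained, Stip1 was at 0.51 (SE 0.14, adjusted p = 0.599) and Hsp90aa1 at -1.11 (SE 0.31, adjusted p = 0.649), and 0 of 16 passed. Of 15 inflammatory genes that the receptor is known to repress, 1 fell and 0 rose over the training period, beside 1.92% and 1.3% of all features, with 11 of 15 negative and a median of -0.03. The one was Il1b, the cytokine that Il1r2 traps, which fell by 0.98 (SE 0.23, adjusted p = 0.0384; -0.69 in batch 1 and -1.57 in batch 2), a call that held in 10 of 20 alternatives. Tnf was at 0.22, Cxcl10 at 0.18 and Cxcl2 at -0.25, and 9 of the 15, Tnf and Cxcl2 among them, had a mean below the median feature level of 1.471. After training none of the 3 lists had a member past the threshold between trained and untrained mice, where the smallest p belonged to Rgs2 (0.60, adjusted p = 0.677) and Irs2 (0.44, adjusted p = 0.773) among induced and Cxcl10 (-0.27) and Ccl4 (-0.33) among repressed genes.

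The 12 array medians spanned 1.436 to 1.519 in log2 intensity, and array pairs correlated at 0.9469 to 0.9781 across features. All 9 genes had means above the median feature, between the 64.8th and the 93.7th percentile of feature means. The labelled tissue had its markers: all measured neutrophil, B cell, T cell, platelet and erythroid markers had means above that median. Of 13 platelet markers 8 passed the adjusted threshold as higher over both arms (median 0.69), beside 1.3% of all features. Markers of airway and skin epithelium were also higher in the late samples. Their summed linear intensities were 42.3 to 445 in trained post and 54.8 to 380 in untrained post arrays. Before training the sums were 21.8 to 27.3 in the trained arm and 22.5 to 31.7 in the untrained arm. Over both arms 2 of 8 of these markers passed the adjusted threshold as higher. The part of these cells in the time differences was not tested. Precision is limited by having 3 arrays per group.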

How the data were processed

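Blood RNA pools were hybridised to Affymetrix Mouse Gene 2.0 ST arrays. The deposited values are on the log2 scale, and per the labels the authors made them by RMA (affy 1.62.0, R 3.6.0). No source used here states a batch adjustment before deposit. Features were named through the platform annotation (26794) and RefSeq (564), and 23 stayed unnamed. limma 3.58.1 (R 4.3.3) was fitted to 27381 features and 12 arrays, with 4 group means and a batch term (7 residual degrees of freedom). Benjamini-Hochberg adjustment ran over all features in each of 6 contrasts, with a threshold of 0.05, and no feature was filtered. The code was tested on simulated data. The 9 genes and the gene lists were chosen with earlier results of these data known. From each pathway list the text names up to 4 genes of smallest p in post against pre and up to 2 in trained against untrained mice after training. Like genes are the 3 with the highest Pearson r. Alternatives changed the batch term, the feature filter, the normalization, the variance model, the array weights and the arrays included. Pools held 7 mice, so p-values measure the spread between pools. The labels count fewer mice than separate pools would need, and whether pools share mice is not stated.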

Additional observations from a re-analysis of the deposited data

How the results depend on the processing

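The number of the 9 genes called in post against pre over both arms was 1, and it was 2 with the replicate block, with features at or above the median level and with array weights, where Il1r2 joined Tsc22d3. It was 0 in batch 1 alone, with quantile normalization and with the limma trend, and 0 to 2 when single arrays were left out. In untrained mice the number was 0, and 1 (Il1r2) with the replicate block and with features at or above the median level. The 7 other induced targets called lower were 1 in batch 1 alone, and the 2 called higher were 1 to 2 without single arrays. The adjusted p of Tsc22d3 over both arms lay between 0.0231 and 0.145. Arrays were not paired by their replicate number, since no label says that a number marks shared mice. After group means were removed, 2 of 18 same-numbered pairs correlated above 0.1 (-0.19 to 0.135). With 3 arrays per group these values cannot tell whether pools share mice.

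Some differences turned sign, none of them called. In batch 1 alone, trained minus untrained after training was 0.22 for Tsc22d3 and 0.15 for Fkbp5, and before training 0.10 for Fkbp5. Post minus pre in trained mice was there 0.18 for Nr3c1, -0.034 for Zbtb16, 0.11 for Ddit4 and 0.029 for Anxa1, and over both arms 0.083 for Sgk1 and -0.0034 for Klf9. The interaction of Tsc22d3 was 0.14. Quantile normalization gave -0.0024 for Klf9 after training, 0.0033 for Klf9 in untrained mice and -0.0067 for Sgk1 in trained mice. Centring on medians gave 0.029 for Tsc22d3 after training and -0.012 for Fkbp5 in untrained mice. The cause was not tested.

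With single arrays left out, trained minus untrained after training ran over -0.080 to 0.27 for Ddit4, -0.16 to 0.095 for Fkbp5, -0.0025 to 0.12 for Klf9, -0.033 to 0.36 for Sgk1, -0.087 to 0.17 for Tsc22d3 and -0.19 to 0.032 for Zbtb16. Trained minus untrained before training ran over -0.33 to 0.039 for Fkbp5, -0.27 to 0.18 for Nr3c1 and -0.091 to 0.18 for Sgk1. Post minus pre in untrained mice ran over -0.099 to 0.21 for Fkbp5, -0.16 to 0.022 for Klf9 and -0.27 to 0.0035 for Sgk1. Post minus pre in trained mice ran over -0.31 to 0.21 for Anxa1, -0.43 to 0.024 for Ddit4, -0.035 to 0.30 for Fkbp5, -0.32 to 0.14 for Nr3c1, -0.21 to 0.18 for Sgk1 and -0.10 to 0.17 for Zbtb16. Post minus pre over both arms ran over -0.0021 to 0.16 for Fkbp5, -0.045 to 0.081 for Klf9, -0.18 to 0.021 for Sgk1 and -0.13 to 0.023 for Zbtb16. The interaction ran over -0.10 to 0.26 for Fkbp5, -0.069 to 0.32 for Sgk1 and -0.26 to 0.052 for Tsc22d3.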
